A study of Homo sapiens with 6 samples.

Results

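The transcripts of 9 genes were examined in MDA-MB-468, a breast cancer cell line of the basal-like class that lacks clinical oestrogen receptor, progesterone receptor and HER2. They are transcription factors and steroid hormone receptors that set luminal or related identity in the mammary epithelium. Chosen by name, they were ESR1, PGR, GATA3, XBP1, SPDEF, ELF5, TFAP2A, TFAP2C and TP63. Of the 9, all but PGR were among the 31122 genes with counts. These 8 passed the filter on low counts, as did 17420 genes in all. Polyadenylated RNA was sequenced from 3 GPR52 KO populations, made with CRISPR-Cas9 and 1 guide RNA (sgRNA1) directed at the gene of the orphan receptor GPR52, and from 3 wells of the unedited parental line, labelled WT. All 6 libraries come from 1 cell line, the wells from 1 plate, and whether each edited population is a clone or a pool is not stated. KO-labelled 1, 2 and 3 were titled 11, 12 and OG, and parental-labelled 1, 2 and 3 were titled W1, W2 and W3. Because the wells share a plate and the populations a guide, p-values measure the spread between these libraries, which may be technical.

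In the mammary duct, luminal cells line the lumen and basal cells face the basement membrane. Oestrogen binds the receptor encoded by ESR1, which with GATA3 and FOXA1 drives the hormone-sensing luminal programme, and PGR, the progesterone receptor, is one of its classic targets. The AP-2 factors TFAP2A and TFAP2C act in the same cells and bind near ESR1 target genes. XBP1 equips cells for secretion through its spliced, stress-activated form, SPDEF is an ETS factor of secretory and luminal cells, and ELF5 drives the hormone receptor-negative alveolar programme and is known to oppose the oestrogen receptor. TP63 encodes p63, which marks basal cells, so it serves here as the counterpart of the luminal factors.

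Total counts were 25983764 to 27956600 in the KO-labelled libraries and 25637794 to 31692454 in the parental-labelled ones. Scaled to the library's total, 1 count was thus worth 0.0316 to 0.0390 CPM. The CPM of genes are counts scaled to library sizes adjusted by TMM, except where library totals are named. The targeted gene went against the label: GPR52 had 645, 694 and 724 counts in KO-labelled libraries, against 9, 1 and 0 in parental-labelled ones. Directions below are therefore those of the libraries labelled KO relative to the libraries labelled parental, whatever the state of GPR52 in them. Of markers of the line, EGFR averaged 5931 ± 2065 CPM in KO-labelled and 5114 ± 220 CPM in parental-labelled libraries (SD, n = 3 each), while RB1 and SMAD4, both known to be deleted in MDA-MB-468, stayed at 13 to 48 counts in KO-labelled and 5 to 42 in parental-labelled ones. Of 12 immune, endothelial and fibroblast markers 2 passed the filter, VWF and CDH5, with a summed level of 0.750 to 1.39 CPM in KO-labelled and 1.62 to 1.75 CPM in parental-labelled libraries. Of them CDH5, an endothelial cadherin, was called lower, and the leukocyte gene PTPRC had 1, 2 and 0 counts in KO-labelled and 9, 6 and 7 in parental-labelled libraries. The deposited tables differed for the macrophage marker CD68, which had 0 to 2 counts in either group but 2.77, 9.25 and 8.49 FPKM in KO-labelled libraries and 3.79, 4.52 and 4.08 FPKM in parental-labelled ones. What part other cells had in the results was not tested. KO-labelled 3 stood apart from the other populations, with a Pearson correlation of log2 CPM across genes of 0.981 and 0.984 with KO-labelled 1 and 2, which had one of 0.991 with each other.

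Promoter sequence is shown for the pair of factors that fell furthest among those with ample counts, XBP1 and SPDEF, and for ELF5, the one that rose. Each run gives the 250 bases before the first listed RefSeq start on GRCh38.p14, on the gene's own strand, the minus strand in each case. The positions are chr22:28800570-28800819 for XBP1, chr6:34556330-34556579 for SPDEF and chr11:34511725-34511974 for ELF5. Capitals mark motif matches found by a search of both strands, which in these runs are the endoplasmic reticulum stress response element in XBP1 (CCAAT, then any 9 bases, then CCACG) and the ETS core AGGAAG in SPDEF and ELF5.
XBP1: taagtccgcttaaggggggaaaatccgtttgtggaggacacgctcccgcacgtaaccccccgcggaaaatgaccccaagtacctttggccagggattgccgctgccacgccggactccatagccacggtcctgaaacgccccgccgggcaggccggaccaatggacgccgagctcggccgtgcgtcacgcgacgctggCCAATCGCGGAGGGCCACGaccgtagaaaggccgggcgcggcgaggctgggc
SPDEF: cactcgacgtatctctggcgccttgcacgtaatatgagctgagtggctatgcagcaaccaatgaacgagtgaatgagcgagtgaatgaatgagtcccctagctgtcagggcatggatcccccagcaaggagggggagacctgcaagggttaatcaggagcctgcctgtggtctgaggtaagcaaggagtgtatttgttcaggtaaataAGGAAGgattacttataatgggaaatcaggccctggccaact
ELF5: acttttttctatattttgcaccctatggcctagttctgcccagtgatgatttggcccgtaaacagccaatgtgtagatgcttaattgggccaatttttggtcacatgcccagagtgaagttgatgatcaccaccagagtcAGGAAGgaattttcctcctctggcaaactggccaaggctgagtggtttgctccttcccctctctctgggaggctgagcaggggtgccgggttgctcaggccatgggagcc

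The stress response element in the XBP1 run, read by ATF6 together with NF-Y, lies 52 to 34 bases before the start. It occurred in 26 of 35116 promoter windows of the same length (0.074%), whereas the ETS core occurred in 28.7% of them. The AP-2 site GCCNNNGGC, which overlapped none of the marked matches, was in 19.8% of windows and, among windows of the 9 genes, in those of PGR, GATA3 and a further start of XBP1. No window of these genes held the oestrogen response element (GGTCA and TGACC with any 3 bases between) or the GATA site AGATAA, which were in 0.0399% and 9.17% of all windows. Windows were listed for 8 of the 9 genes, all but TFAP2C. A match describes the letters only.

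Set against each other, the 2 groups differed most for ESR1, ELF5 and XBP1. In KO-labelled libraries 4 of the 8 tested genes were lower (ESR1, XBP1, SPDEF and TFAP2A), 1 was higher (ELF5) and 3 were not called (GATA3, TFAP2C and TP63). The share called, 62.5%, stood beside a background in which 40.8% of all 17420 tested genes were called in this comparison, 21.0% higher and 19.8% lower, so that a call alone sets few genes apart here. The median log2 fold change of the 8 was -0.45, against 0.01 over all tested genes. CPM did not overlap between the groups for 6 of the 8, against 54.4% of all tested genes. Past 2-fold, 3 of the 8 were called, ESR1 and XBP1 lower and ELF5 higher, where 12.1% of tested genes were, 5.38% lower and 6.67% higher. In bulk RNA, fewer cells of one state and less RNA per cell cannot be told apart.

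**Figure D1:**
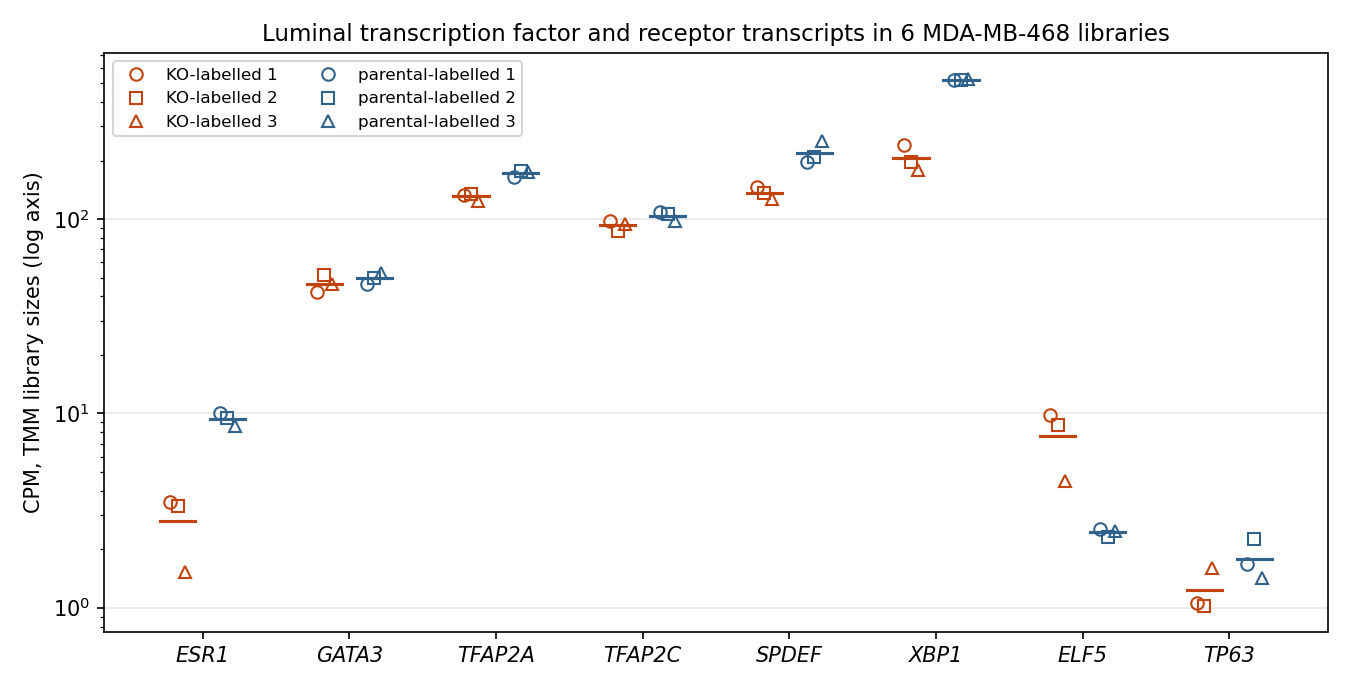
CPM with TMM library sizes, on a log axis, of the 8 tested genes in each library, KO-labelled libraries in red on the left of each pair and parental-labelled ones in blue on the right, with a bar at each group's mean. ESR1 and XBP1 sit lower and ELF5 higher in all 3 KO-labelled libraries, and KO-labelled 3 (triangle) holds the lowest ESR1 and ELF5 values of its group.

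Among the hormone receptors, ESR1 fell to 29.7% of its parental level and PGR was at the floor of detection throughout. ESR1 had 93, 94 and 43 counts in KO-labelled libraries, against 305, 238 and 268 in parental-labelled ones. This came to 3.50, 3.32 and 1.54 CPM in KO-labelled 1 to 3, against 10.1, 9.46 and 8.62 CPM in parental-labelled 1 to 3. The groups did not overlap, and KO-labelled 3 was at 0.450 times the mean of the other KO-labelled libraries. The log2 fold change was -1.75 (SE 0.25), and the adjusted p was 0.00102 by the quasi-likelihood test of edgeR with Benjamini-Hochberg adjustment over all tested genes. In all, 5.18% of tested genes had a larger absolute log2 fold change. Without KO-labelled 3 it was -1.46 and remained called.

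The authors' FPKM values, which are scaled by transcript length and library size, did not separate the groups for ESR1. They were 0.811, 1.51 and 0.189 FPKM in KO-labelled 1 to 3, against 1.33, 1.21 and 1.13 FPKM in parental-labelled 1 to 3, so that KO-labelled 2 was the highest library of all and the groups overlapped. With limma on log2(FPKM + 1) the log2 fold change was -0.34 and the call was lost, with an adjusted p of 0.345. Over all alternatives the adjusted p of ESR1 ranged from 1.9e-09 to 0.345. Dividing the CPM of library totals by the FPKM gives the transcript length that the deposited values imply if both use the same reads. The values of CD68 above show that this did not hold for every gene. For ESR1 that length was 4.41, 2.22 and 8.19 kb in KO-labelled 1 to 3, against 7.49, 7.70 and 7.46 kb in parental-labelled 1 to 3. The highest exceeded the lowest by 3.68 times, a ratio that 2.15% of 17125 tested genes surpassed and whose median was 1.17. ESR1 is known to have several promoters and transcript lengths, but no counts per transcript were used here. What part transcript choice, the length estimate or the assignment of reads had was not tested. For TP63 the same ratio was 1.75, and for the other tested members it was between 1.04 and 1.17.

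**Figure D2:**
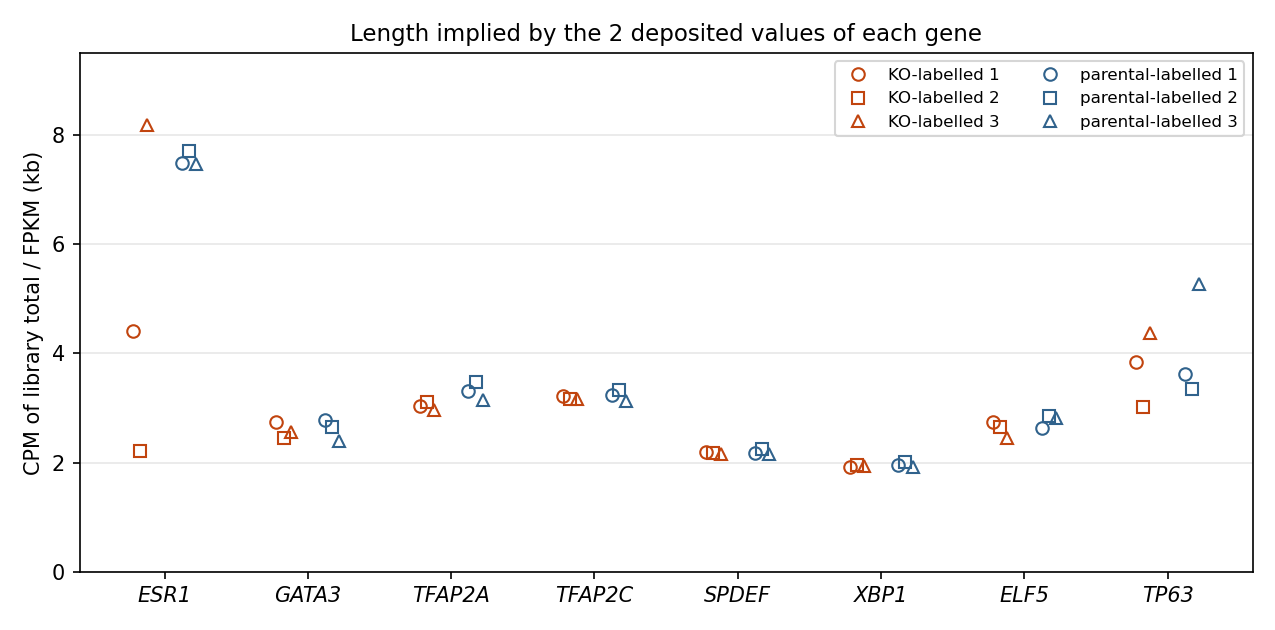
CPM of the library total divided by the authors' FPKM, per gene and library, a length in kb if both use the same reads. KO-labelled libraries are in red on the left and parental-labelled ones in blue on the right. Values of ESR1 spread from 2.22 to 8.19 kb among KO-labelled libraries and from 7.46 to 7.70 kb among parental-labelled ones, while those of XBP1 and SPDEF stay near 2 kb in every library.

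PGR was listed at 0 FPKM in 5 libraries and at 7.82e-05 FPKM in KO-labelled 1, and it was not among the genes with counts. No fold change is given for it. Of 7 listed relatives among the nuclear receptors 3 were tested, and edgeR, DESeq2 and limma voom each called 0 of them, with 1 (NR3C1) at an unadjusted p under 0.05 in edgeR. NR3C1, the glucocorticoid receptor, averaged 55.3 ± 3.87 CPM in KO-labelled and 63.9 ± 3.74 CPM in parental-labelled libraries (SD, n = 3 each), with an adjusted p of 0.0775 in the edgeR test. ESR2, the second oestrogen receptor, had 0, 2 and 4 counts in KO-labelled libraries and 1, 1 and 3 in parental-labelled ones, too few to test.

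Cofactors of these receptors moved in both directions. Of 17 tested, 6 were higher, 4 lower and 7 not called, with a median log2 fold change of 0.13. The share called was 58.8%, beside 40.8% of all tested genes, a difference that was not tested. The coactivator and acetyltransferase CREBBP rose by 0.62 (SE 0.06) on the log2 scale, the corepressors TLE3 and NCOR1 by 0.81 (SE 0.09) and 0.49 (SE 0.07), and NRIP1, a receptor corepressor that is itself induced by oestrogen, fell to 133 ± 13.5 CPM in KO-labelled, against 246 ± 17.1 CPM in parental-labelled libraries. The pioneer factor FOXA1, which opens chromatin for the oestrogen receptor, had 2067, 1572 and 1591 counts in KO-labelled libraries and 2761, 2217 and 2882 in parental-labelled ones (log2 fold change -0.52, SE 0.13). Their adjusted p ranged from 1.4e-04 to 0.0141 (edgeR quasi-likelihood test). Of 8 receptor chaperones 2 were higher, HSP90AA1 and its cochaperone STIP1, at log2 fold changes 0.43 (SE 0.09) and 0.44 (SE 0.12) and with adjusted p of 0.00788 and 0.0194 (edgeR). The other 6 were not called, so that 25.0% of the chaperones were called, beside 40.8% of all tested genes.

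Genes known to respond to oestrogen or to accompany ESR1 in tumours split evenly. Of 20 tested, 5 were higher, 6 lower and 9 not called, and the median log2 fold change was 0.00. The share called was 55.0%, beside 40.8% of all tested genes, a difference that was not tested. CA12, a carbonic anhydrase, fell to 4, 6 and 8 counts in KO-labelled libraries, against 53, 38 and 55 in parental-labelled ones, and CCND1, cyclin D1, fell to 121 ± 24.6 CPM in KO-labelled, against 293 ± 8.16 CPM in parental-labelled libraries. Going the other way, the receptor tyrosine kinase RET rose to 99, 111 and 139 counts in KO-labelled libraries, against 15, 15 and 18 in parental-labelled ones, and the binding protein IGFBP4 by 1.10 (SE 0.08) on the log2 scale. Chosen after their values were seen, PDZK1, a scaffold protein, fell by 2.36 (SE 0.30) and GREB1, a cofactor and classic target of the receptor, rose by 1.56 (SE 0.21) on the log2 scale. The adjusted p of these 6 genes lay between 4.2e-05 and 7.8e-04 (edgeR quasi-likelihood test). TFF1, another classic target, also named after its counts were seen, had 0 counts in all 3 KO-labelled libraries and 1, 0 and 0 counts in parental-labelled ones.

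GATA3 and the AP-2 factors changed little. GATA3, the zinc finger factor required for luminal differentiation, had 42.0, 51.3 and 46.5 CPM in KO-labelled libraries, against 46.5, 49.7 and 52.8 CPM in parental-labelled ones. The groups overlapped, and the log2 fold change was -0.09 (95% interval -0.31 to 0.13; adjusted p = 0.482, edgeR), whose lower end is 0.807 times the parental level. TFAP2A had 134, 135 and 124 CPM (3552, 3820 and 3486 counts) in KO-labelled libraries, against 164, 177 and 175 CPM in parental-labelled ones. It was lower in every KO-labelled library than in any parental-labelled one, at a log2 fold change of -0.39 (SE 0.07; adjusted p = 0.00248, edgeR). In the FPKM table its values also did not overlap, but limma gave an adjusted p of 0.0517 with a pseudocount of 1 and 0.0539 with one of 0.1, in a range over all alternatives from 7.7e-06 to 1. TFAP2C had 97.4, 87.3 and 94.3 CPM in KO-labelled libraries, against 109, 106 and 98.2 CPM in parental-labelled ones. These groups did not overlap either, but the log2 fold change of -0.16 (95% interval -0.33 to 0.01) was not called, with an adjusted p of 0.113 (edgeR).

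Among relatives of these factors the differences were wider. TFAP2B, the AP-2 paralogue, had 2, 2 and 0 counts in KO-labelled libraries, against 24, 25 and 14 in parental-labelled ones, a log2 fold change of -3.80 (SE 0.62) on few counts. KCTD15, known to inhibit AP-2 activity, rose to 54.5 ± 7.38 CPM in KO-labelled, against 17.9 ± 1.45 CPM in parental-labelled libraries. The AP-2 coactivator CITED2 rose by 0.61 (SE 0.14) on the log2 scale and CITED4, of the same family, fell by 0.47 (SE 0.10). Of 8 tested genes of the AP-2 list 2 were higher, 3 lower and 3 not called, 62.5% called beside 40.8% of all tested genes. ERBB2, a known AP-2 target, was among those not called, with a log2 fold change of -0.12 (SE 0.09). Of the GATA relatives 3 were tested: GATA6 fell by 0.71 (SE 0.18) on the log2 scale, whereas GATA2 at -0.49 (SE 0.18) and the GATA cofactor gene ZFPM1 at 0.47 (SE 0.18), named after its value was seen, were not called. The adjusted p of the called genes lay between 5.0e-05 and 0.0160 (edgeR quasi-likelihood test).

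XBP1 was the most abundant of the 9 transcripts per length and fell to 39.5% of its parental level. It had 6423, 5588 and 5038 counts in KO-labelled libraries, against 15776, 13166 and 16320 in parental-labelled ones. These were 242, 198 and 180 CPM in KO-labelled 1 to 3, against 521, 523 and 525 CPM in parental-labelled 1 to 3. The parental-labelled wells were nearly equal, while the KO-labelled populations differed by up to 1.35 times, and the groups lay far apart. The log2 fold change was -1.34 (SE 0.11; adjusted p = 6.3e-05, edgeR). The authors' FPKM followed, with 129, 103 and 93.6 FPKM in KO-labelled libraries against 264, 255 and 268 FPKM in parental-labelled ones. The call was kept under all 18 alternatives, with log2 fold changes between -1.47 and -1.25. Counts per gene do not separate the spliced from the unspliced form.

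The genes of the secretory pathway known as XBP1 targets were mostly not called. Of 30 tested, 9 were lower, 2 higher and 19 not called, and the median log2 fold change was -0.08. The share called was 36.7%, against 40.8% of all tested genes, 21.0% higher and 19.8% lower. Calls in this list were thus more often lower than higher, a difference from all genes that was not tested. SPCS3, a signal peptidase subunit, fell to 77.5 ± 7.90 CPM in KO-labelled, against 142 ± 6.50 CPM in parental-labelled libraries. The Golgi trafficking gene ARFGAP3 and SSR1, of the translocon-associated complex, fell by 0.68 (SE 0.07) and 0.56 (SE 0.07) on the log2 scale. KDELR3, a receptor that returns chaperones to the endoplasmic reticulum, rose to 421, 448 and 610 counts in KO-labelled libraries, against 248, 186 and 235 in parental-labelled ones. ERN1, which encodes IRE1, the sensor that splices XBP1 mRNA, was not called at 0.16 (SE 0.09). These called genes had adjusted p from 1.9e-04 to 5.7e-04 (edgeR). The stress response element shown above for XBP1 was found at 25 genes, of which 15 were tested. Beside 40.8% of all tested genes called, 2 of these 15 were higher, 4 lower (XBP1 included) and 9 not called. Of that group, and chosen after their values were seen, the chaperone gene HSP90B1 (GRP94) fell by 0.44 (SE 0.06) and the disulphide isomerase gene PDIA6 rose by 0.38 (SE 0.08) on the log2 scale. Their adjusted p were 9.0e-04 and 0.00500 (edgeR). HSPA5, the chaperone BiP, was not called at -0.09 (SE 0.07).

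SPDEF fell by less than XBP1. Its values were 147, 137 and 127 CPM in KO-labelled libraries, against 198, 209 and 252 CPM in parental-labelled ones. No value overlapped, with parental-labelled 3 the highest. The log2 fold change was -0.68 (SE 0.10; adjusted p = 0.00147, edgeR), a level 62.4% of the parental one, and it was -0.58 without parental-labelled 3. Tested against a 1.5-fold change it was no longer called (adjusted p = 0.367, in a range over alternatives from 1.4e-07 to 0.367).

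ELF5 was the single member that rose, to 3.14 times its parental level. It had 261, 248 and 125 counts in KO-labelled libraries, against 77, 58 and 77 in parental-labelled ones. In CPM these were 9.83, 8.77 and 4.46 in KO-labelled 1 to 3, against 2.54, 2.30 and 2.48 in parental-labelled 1 to 3. All KO-labelled libraries were above all parental-labelled ones, and KO-labelled 3 reached 0.480 times the mean of the other populations. The log2 fold change was 1.65 (SE 0.29; adjusted p = 0.00310, edgeR), 1.92 without KO-labelled 3, and it was called under each of the 17 alternatives that kept the gene. The authors' FPKM gave 3.66, 3.35 and 1.83 in KO-labelled libraries against 0.951, 0.791 and 0.863 in parental-labelled ones.

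ELF5 and ESR1 thereby changed places in the order of levels. By mean FPKM, a scale per length, XBP1, SPDEF, TFAP2A, TFAP2C and GATA3 led in that order in both groups, and TP63 and PGR came last. ELF5 followed GATA3 in KO-labelled libraries with 2.95 ± 0.978 FPKM, above ESR1 with 0.838 ± 0.662 FPKM, whereas in parental-labelled libraries ESR1 followed GATA3 with 1.22 ± 0.0992 FPKM, above ELF5 with 0.868 ± 0.0798 FPKM (SD, n = 3 each). Ranges of neighbours in this order did not overlap, except those of ESR1 and TP63 in KO-labelled libraries. In counts, which here are not scaled by length, there were 2.81, 2.64 and 2.91 ELF5 counts per ESR1 count in KO-labelled 1 to 3, against 0.252, 0.244 and 0.287 in parental-labelled 1 to 3. In FPKM the ratio was 4.51, 2.22 and 9.68 in KO-labelled 1 to 3, against 0.715, 0.656 and 0.761 in parental-labelled 1 to 3. The KO-labelled libraries were thus close to each other in the count ratio and far apart in the FPKM ratio, and on both scales the groups did not overlap.

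Of 8 other ELF and ETS factors tested, 4 were higher, 2 lower and 2 not called, 75.0% called beside 40.8% of all tested genes, a difference that was not tested. EHF, the neighbour of ELF5 on chromosome 11 and its close relative, rose to 676 ± 155 CPM in KO-labelled, against 319 ± 22.5 CPM in parental-labelled libraries (log2 fold change 1.09, SE 0.16). ELF3, also epithelial, fell by 0.48 (SE 0.07) on the log2 scale, and ELF4 and ETS1 rose by 0.48 (SE 0.07) and 0.69 (SE 0.12). Of the prolactin and alveolar genes 6 were tested, 2 higher, 2 lower and 2 not called, a share called of 66.7%. PRLR, the prolactin receptor, rose to 4923, 3727 and 4211 counts in KO-labelled libraries, against 1908, 1574 and 1671 in parental-labelled ones, while its kinase JAK2 fell by 0.77 (SE 0.10) and the STAT5 target CISH by 0.62 (SE 0.09) on the log2 scale. SOCS2, another STAT5 target, rose by 1.54 (SE 0.51) on the log2 scale, with 0.980, 2.12 and 4.32 CPM in KO-labelled libraries against 0.891, 0.834 and 0.836 CPM in parental-labelled ones. KO-labelled 1 was thus only just above the parental-labelled libraries, on 26 counts. STAT5A was not called at -0.28 (SE 0.10) but was called lower with DESeq2 size factors, and the milk gene LALBA, named after its counts were seen, had 0 counts in KO-labelled libraries and 1, 0 and 0 in parental-labelled ones. Called genes of both lists that are named here had adjusted p from 1.4e-04 to 0.0437 (edgeR).

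TP63 had the fewest counts of the tested members. It had 28, 29 and 45 counts in KO-labelled libraries, against 51, 57 and 44 in parental-labelled ones. KO-labelled 3 lay within the parental range and the other populations below it. The log2 fold change of -0.52 (95% interval -1.13 to 0.09) was not called, with an adjusted p of 0.155 (edgeR), but without KO-labelled 3 it was -0.76 and called, with an adjusted p of 0.0370 in a range over alternatives from 0.0370 to 1. The interval reached from 0.457 times the parental level to above it, so no difference was detectable with all libraries.

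Genes known as p63 targets or relatives moved in both directions. Of 19 tested, 8 were higher, 3 lower and 8 not called, 57.9% called beside 40.8% of all tested genes (21.0% higher and 19.8% lower), with a median log2 fold change of 0.18. The difference from all genes was not tested. The keratin KRT15 and the hemidesmosomal integrin ITGB4 rose by 1.43 (SE 0.10) and 1.42 (SE 0.12) on the log2 scale, and the calcium-binding protein S100A2 rose to 43.0 ± 7.89 CPM in KO-labelled, against 18.4 ± 0.188 CPM in parental-labelled libraries. The basal keratin KRT5 rose by 0.51 (SE 0.13) on the log2 scale, while TP73, the paralogue of TP63, was not called at -0.04 (SE 0.09). Named called genes of this list had adjusted p from 3.5e-05 to 0.0154 (edgeR).

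General markers of the cell layers moved both ways. Of 11 tested luminal markers that are not among the 9 genes, 2 were higher, 4 lower and 5 not called, with a median log2 fold change of -0.32. The share called was 54.5%, beside 40.8% of all tested genes. The mucin MUC1 fell by 1.51 (SE 0.10) on the log2 scale, while AGR2, a disulphide isomerase of secretory cells, and the adhesion protein EPCAM rose by 1.44 (SE 0.09) and 0.46 (SE 0.07). FOXA1, given above, also fell, as did the keratins KRT7 and KRT18, by 0.33 (SE 0.09) and 0.46 (SE 0.14). Both keratins were chosen after their values were seen, and the other keratins among the luminal markers were not called. Of 11 tested basal markers 4 were higher, 3 lower and 4 not called, with a median of 0.21 and a share called of 63.6%. KRT14 and KRT6B rose by 1.90 (SE 0.24) and 3.09 (SE 0.59), and P-cadherin (CDH3) and the myosin kinase MYLK fell by 0.76 (SE 0.10) and 1.35 (SE 0.27). The called genes named in this paragraph had adjusted p from 1.8e-05 to 0.0293 (edgeR).

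**Figure D3:**
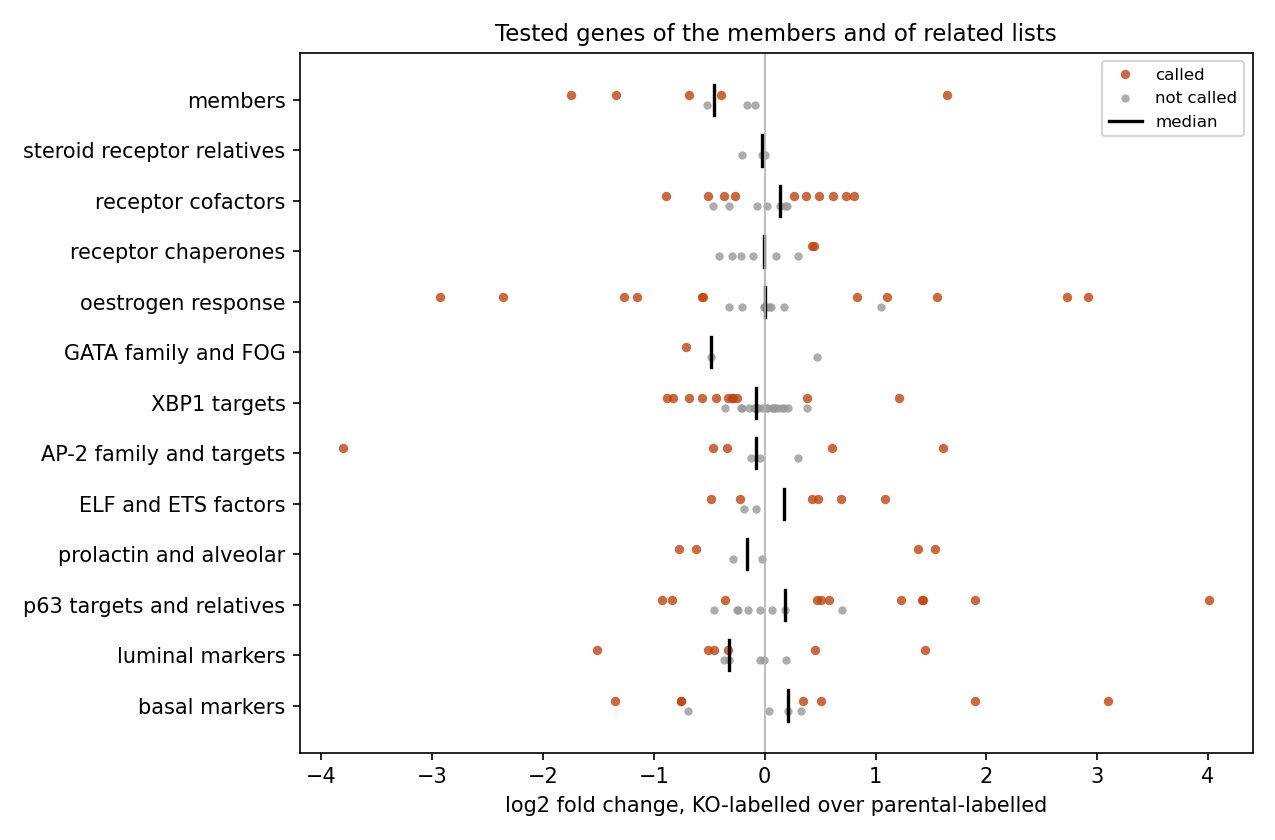
Log2 fold change, KO-labelled over parental-labelled, of each tested gene of the members and of related lists, called genes in red above each line and others in grey below it, with a bar at the list's median. Most lists hold called genes on both sides of 0, the medians of the luminal and basal markers lie at -0.32 and 0.21, and that of all tested genes is 0.01.

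Neighbouring genes moved with some of the members. For each gene the 5 nearest tested protein-coding genes on each side were taken from GENCODE release 29, by their order on GRCh38, whereas the authors' notes name hg19. All 10 neighbours of ESR1 on chromosome 6 were called lower in KO-labelled libraries, beside 19.8% of all tested genes called lower. Their median log2 fold change was -0.76 and their range -1.64 to -0.50, so that ESR1 at -1.75 lay below each of them. Relative to that median it was at -0.99 (SE 0.25) and remained called, with an adjusted p of 0.0149 in an edgeR fit chosen after seeing the data. Here and below that fit took the neighbours' median as fixed, so its SE and p leave out the spread of the neighbours. The neighbours of TFAP2A, on the same chromosome, had a median of -0.37, and relative to it TFAP2A was at -0.02 (SE 0.07) and no longer called (adjusted p = 0.807). For TFAP2C on chromosome 20 the same fit gave -0.30 (SE 0.07) and a call, with an adjusted p of 0.0136. The neighbours of TFAP2C ranged from -0.47 to 1.48.

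Around XBP1 and ELF5 the medians of the neighbours did not go in the direction of the gene. Those of XBP1 on chromosome 22 had a median of 0.04, with CCDC117 and ZNRF3 on either side at 0.09 and 0.08, neither of them called. Those of SPDEF had a median of -0.22, with 2 higher, 4 lower and 4 not called, and relative to it SPDEF was at -0.47 (SE 0.10) and remained called (adjusted p = 0.00864, edgeR). ELF5 lay between CAT, which encodes catalase, at -0.97 and EHF at 1.09, both called. Its 10 neighbours had a median of -0.23 with 2 higher, 5 lower and 3 not called. Beside the counts for SPDEF and ELF5, 21.0% of all tested genes were called higher and 19.8% lower. GATA3, itself not called, had CELF2 as the next tested gene after it, which was nearly absent from parental-labelled libraries at 0.0767 ± 0.106 CPM and had 9.09 ± 2.05 CPM in KO-labelled ones (SD, n = 3 each). Copy number was not measured, and what part it had was not tested.

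**Figure D4:**
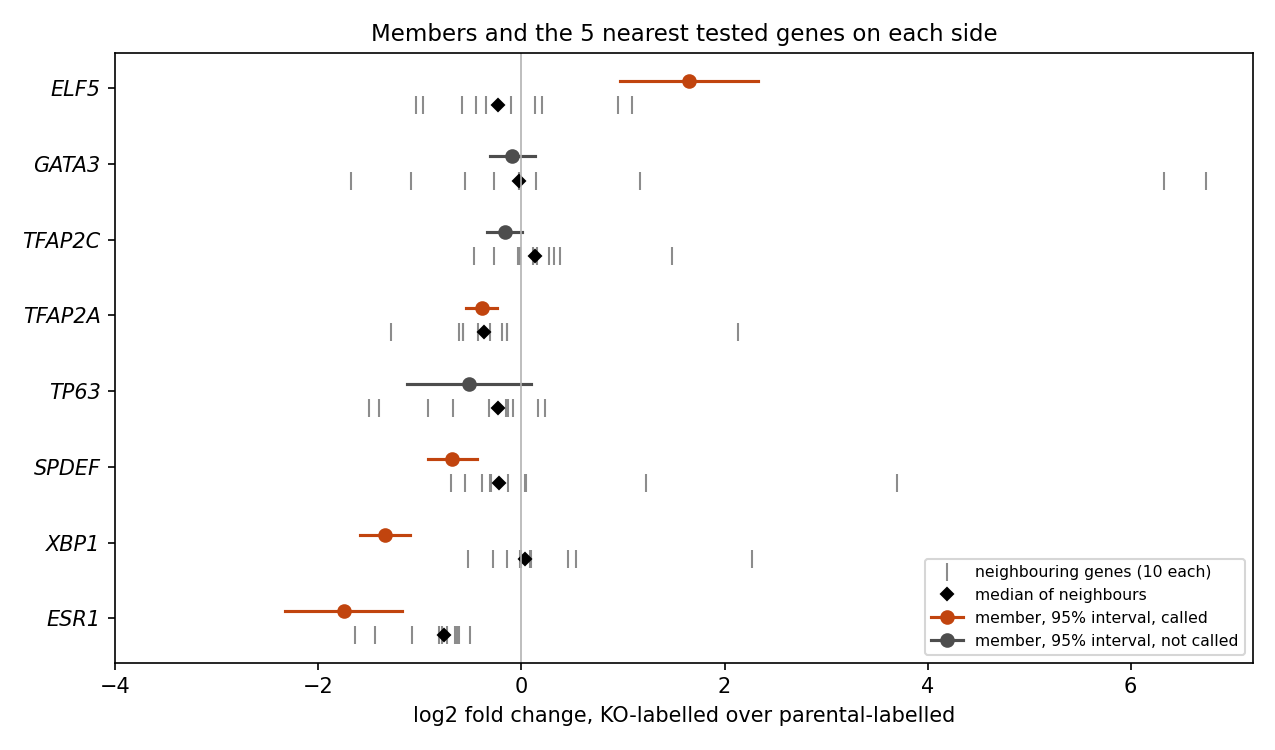
Log2 fold change, KO-labelled over parental-labelled, of each tested member (circle with 95% interval, red where called) above those of the 5 nearest tested genes on each side (grey ticks) and their median (black diamond). The neighbours of ESR1 all lie below 0 and those of XBP1 centre on 0.04, whereas XBP1 itself is at -1.34.

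The spread within groups was uneven. The SD of log2 CPM was wider among KO-labelled than among parental-labelled libraries for 7 of the 8 genes, against 76.3% of all tested genes, with SPDEF the exception. It was 0.65 against 0.11 for ESR1 and 0.61 against 0.07 for ELF5. Over 6 libraries, the genes whose centred log2 CPM lay closest to ESR1 among 11867 candidates were NPNT, PAN2 and RCAN1, at Euclidean distances of 0.331, 0.374 and 0.435, where the median candidate was at 2.41. Those closest to ELF5 were MYO15B, F8 and KIAA1024, at 0.169, 0.260 and 0.324, with a median of 2.13. Because the distance covered all 6 libraries, that each of these genes shared the lower value of KO-labelled 3 follows from the choice. RCAN1, for example, had 187, 190 and 122 CPM in KO-labelled libraries, against 568, 578 and 565 CPM in parental-labelled ones. MYO15B had 13.5, 13.0 and 7.07 CPM in KO-labelled libraries, against 3.89, 3.69 and 3.79 CPM in parental-labelled ones.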

How the data were processed

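RNA was sequenced from 6 cultures of 1 cell line. Per the labels' protocols, poly(A) RNA was made into directional libraries. The authors deposited raw counts per gene symbol and FPKM values. Per the submitters' processing notes, the tools were Cufflinks 2.0.2, STAR 2.4.0f1 and SAMtools 0.1.19 and the build was hg19. Their roles, the annotation and the strand setting of counting are not given in these sources, so overlapping and antisense genes may share reads.

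From the counts, genes were kept by filterByExpr (minimum count 10, minimum total 15), normalised by TMM and tested by the edgeR 4.0.16 quasi-likelihood F test in R 4.3.3, with 3 libraries per group, no covariate and Benjamini-Hochberg adjustment over 17420 genes (threshold 0.05). The SE is the log2 fold change divided by the root of F. The labels give no pairing. Alternatives used DESeq2 1.42.0 and limma 3.58.1, which was also run on FPKM of at least 0.1 in 3 libraries (21421 genes). The edgeR procedure was checked on simulated data. Members, gene lists and tests were chosen with earlier results of these data known. Named genes are the members, up to 4 called genes per list with the smallest p, and stated partner genes. Promoter windows come from RefSeq (GRCh38.p14). Some genes of the lists are counted but not reported here by name.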

Additional observations from a re-analysis of the deposited data

How the results depend on the processing

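Calls of XBP1 (18 alternatives), ELF5 (17) and the absence of a call for GATA3 (18) held in each alternative run, and no fold change of a member changed sign. The number of called members was 3 with limma on log2(FPKM + 1) or log2(FPKM + 0.1), where ESR1 (-0.34 and -0.81) and TFAP2A (-0.22 with either) lost their calls. It was also 3 against a 1.5-fold change, where SPDEF (-0.68) and TFAP2A (-0.39) lost theirs and the number of called genes was 1922 in place of 7105, and 3 with a minimum of 10 CPM in 3 libraries, which left 5 members to test. Relative to neighbouring genes, an alternative chosen after seeing the data that took the neighbours' median as fixed, TFAP2A (-0.023) lost and TFAP2C (-0.30) gained a call. Leaving out each library gave 5 to 6 called members and 4879 to 9367 called genes, and TP63 between -0.76 and -0.33, called without KO-labelled 3. DESeq2 size factors changed 1 of 154 calls among the listed genes, STAT5A, which became lower. Upper quartile or total scaling changed 8 of 154 calls among the listed genes, ETS2, NCOA2, NCOA3, PERP, RPN1 and ZFPM1 among them, reversed none, and turned the sign of the medians of the receptor relatives and chaperones, which lay within 0.05 of 0. No paired analysis was possible because the libraries of the 2 groups share no numbering in the labels. ESR1, ELF5 and TP63 had the fewest counts of the tested members, and what part depth had was not tested. The cause of these differences was not tested.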
